A study of Mus musculus with 12 samples.

Results

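Hspa1a, Hspa1b, Hspa8, Hsph1, Dnajb1, Bag3, Hsp90aa1, Fkbp4, Hspb1 and Hspd1 encode heat shock chaperones and their helpers, and their levels are described here across 12 libraries of mouse hippocampus. These 10 genes, of 36119 in the deposited table, were selected on their levels in the enriched ethanol libraries, so their height there is a description and not a finding. The products of 9 of them work mainly in the cytosol and nucleus. Hspd1 is an exception to the cytosolic name of the set, since it encodes HSP60, the chaperonin of the mitochondrial matrix. All 10 passed the filter on low values (12-library mean of 1 or more), which 14947 genes passed. None of them needed the enriched ethanol libraries to pass it.

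The mice were C57BL/6 and were killed at postnatal day 70, with 3 in each of 4 groups. Standard saline mice received 2 saline injections 2 hours apart on postnatal days 6 and 7 and lived in standard cages from day 21. Standard ethanol mice were injected subcutaneously with 2.5 g/kg ethanol on that schedule and lived in the same kind of cage. Enriched saline and enriched ethanol mice received the respective injections and, from day 21, lived in groups of 2 to 6 same-sex littermates in large cages that offered wheels to run in, toys, ladders and more to nest in. Every mouse was thus injected as a pup, and every mouse was killed by carbon dioxide and cervical dislocation before the hippocampus was frozen. The labels call the ethanol treatment prenatal, although the protocol places each injection after birth. They do not give the sex of a mouse, the hour of killing or whether mice in the same group were littermates or cage mates, so the p-values below measure the spread between these libraries only.

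Heat shock chaperones bind unfolded stretches of other proteins and help them to fold, to stay soluble or to reach the degradation machinery. Hsp70 proteins do so in a cycle driven by ATP, in which J-domain proteins deliver clients and start hydrolysis, and nucleotide exchange factors release them, often onward to HSP90. Part of each family is always present at a high level, and part is kept low until the transcription factor HSF1 binds heat shock elements in the promoters, which are runs of the unit nGAAn in alternating direction.

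The promoters are shown for their heat shock element letters. These letters were not read in choosing the genes, but the genes belong to a class partly controlled through such elements. The shares below are therefore a description. Windows of 300 bases, from 250 before to 50 after each annotated start, came from RefSeq (GRCm38.p6) and were available for 8 of the 10 genes, Hspa8 and Hsp90aa1 being the others. Both strands were searched for 2 alternating units (GAANNTTC or TTCNNGAA) and for 3 (GAANNTTCNNGAA or TTCNNGAANNTTC), and any match of 3 units also contains matches of 2. At least 1 match of 2 units was present for 7 of the 8 genes, Dnajb1 being without one, where 4587 of all 27025 genes with a window (15.1% of 32851 windows) held such a match. Matches of 3 units were present for Hspd1 and Hsph1, against 0.662% of all genes with a window (0.603% of windows). The sequences below are printed 5′ to 3′ along the strand of the gene, with 1 match each in capitals, of 3 or more units where there is one and otherwise the first.
Hspa1a, chr17:34972217-34972296, minus strand: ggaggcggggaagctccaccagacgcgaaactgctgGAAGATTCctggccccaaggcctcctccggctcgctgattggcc
Hspb1, chr5:135887766-135887845, plus strand: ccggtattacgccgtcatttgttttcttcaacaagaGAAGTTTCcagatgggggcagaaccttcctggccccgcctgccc
Hspd1, chr1:55088028-55088107, minus strand: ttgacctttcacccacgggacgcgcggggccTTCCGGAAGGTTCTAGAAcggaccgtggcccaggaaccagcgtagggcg
Fkbp4, chr6:128438764-128438843, minus strand: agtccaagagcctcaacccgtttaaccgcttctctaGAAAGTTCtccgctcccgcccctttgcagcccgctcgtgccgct
Hsph1, chr5:149636287-149636316, minus strand: agtaaaatgctgcagaTTCTGGAAAGTTCt
Bag3, chr7:128523603-128523632, plus strand: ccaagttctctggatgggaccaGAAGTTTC

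Hspa1b carries the same 80 letters as Hspa1a, at chr17:34959299-34959378 on the minus strand, and the 250 bases before the start are identical at 247 positions in this gene pair. In both, the match begins 104 bases before the start. For Hspb1 it begins 117 bases before the start, and a second match of 2 units lies in the printed stretch, 97 bases before the start. Hspd1 has the longest run, of 18 bases, which begins 144 bases before 1 of its 2 annotated starts. For Fkbp4 the match begins 151 bases before the start. Hsph1 has another match of 2 units, not printed, 33 bases before the start of the window printed. The printed Hsph1 and Bag3 letters lie after the start, from bases 37 and 43 of the respective window's transcript. A match is a description of these letters and not evidence that a factor was bound in these mice.

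Levels are the deposited values, named TPM by the authors, which are scaled to transcript length and so can be set side by side between genes. They spanned a wide range before any comparison was made. Hspa8 had a 12-library mean of 1996, rank 26 of the 14947 genes tested, and Hsp90aa1 a mean of 1054, rank 72. Hsph1, Hspd1 and Fkbp4 followed at means of 177, 174 and 112. Dnajb1, at 31.3, had rank 5461. The heat-inducible Hsp70 pair was lower still, Hspa1b at 18.6 and Hspa1a at 15.2, and Hspb1 (10.2) and Bag3 (4.04) were the lowest, at ranks 9785 and 12117. The plot of levels by library shows all 10 genes on linear axes. Of the 9 libraries outside enriched ethanol, enriched saline replicate 2 stood apart in choroid plexus markers, with a sum of 7762 for 6 genes and Ttr at 7503, against 385 or less in each other library. It also held the highest of the 9 values for Hspb1, Hsp90aa1, Hspd1 and Fkbp4, and for Hspa5 outside the set. Its mean of the 10 genes was the highest among the 9, and the part of choroid plexus tissue in these values was not tested.

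**Figure D1:**
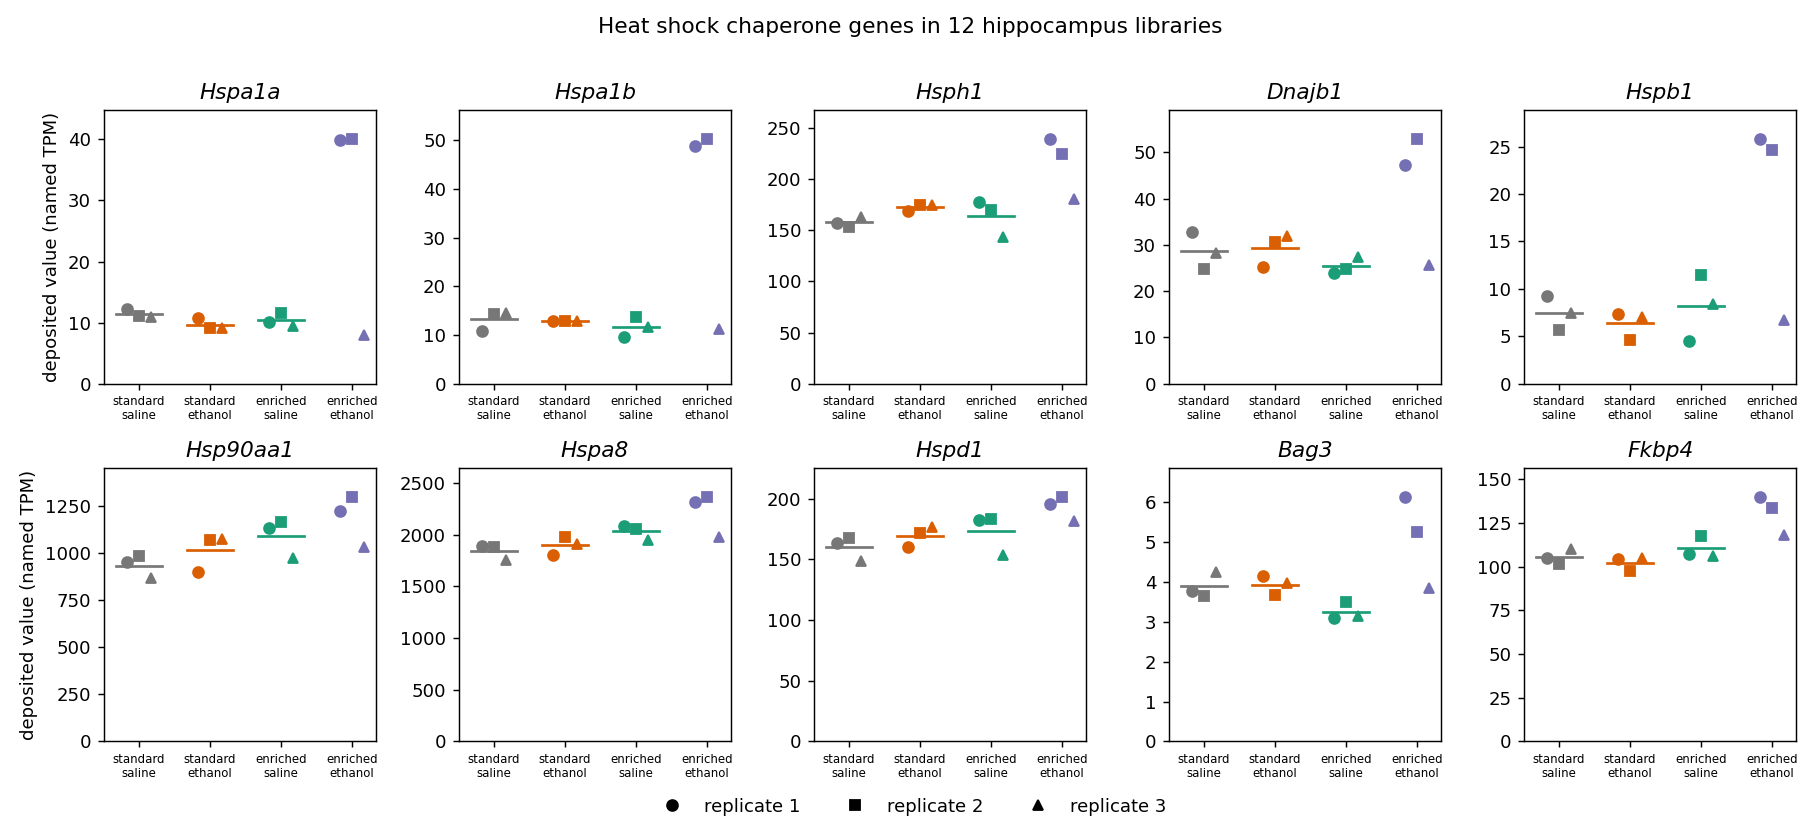
Deposited values (vertical axes, starting at 0) of the 10 heat shock chaperone genes in each library, by group, with the marker shape giving the replicate number and horizontal lines the mean of 3 libraries in the standard saline, standard ethanol and enriched saline groups. Enriched ethanol replicates 1 and 2 are the 2 highest points in all 10 panels, and replicate 3 lies lower in each.

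Enriched ethanol replicates 1 and 2 were the 2 highest of the 12 libraries for each of the 10 genes, the pattern by which the genes were chosen. Over all genes tested, 2.88% had those same libraries on top. Replicate 3 of the group did not share their height. Each of the 3 is therefore given on its own below, beside the 9 libraries of the other groups.

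The heat-inducible Hsp70 genes stood farthest apart. Hspa1a (chromosome 17, 34969190 to 34972156, GRCm38) encodes an Hsp70 that many cells make in quantity only under stress. It was at 12.3, 11.1 and 10.9 in standard saline, 10.7, 9.17 and 9.14 in standard ethanol, and 10.2, 11.7 and 9.38 in enriched saline mice. Enriched ethanol replicates 1, 2 and 3 were at 39.9, 40.0 and 7.95. Replicates 1 and 2 thus lay at 3.72 and 3.73 times the median of the 9 other libraries, while replicate 3, at 0.741 times, was the lowest of all 12. Hspa1b (chromosome 17, 34956436 to 34959238) encodes a near-identical protein from the neighbouring gene. Its values were 10.8, 14.4 and 14.6 in standard saline, 12.9, 12.9 and 12.8 in standard ethanol, and 9.62, 13.6 and 11.6 in enriched saline mice. In the enriched ethanol libraries it was at 48.9, 50.2 and 11.3. Replicates 1 and 2 were 3.80 and 3.90 times the median of the 9, and replicate 3 ranked 10th.

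Reads of this pair are hard to divide between its members, since 63.8% of the 31-base words of the Hspa1a transcript also occur in Hspa1b. Counting all other genes, the shared part was 70.1% for Hspa1a and 68.1% for Hspa1b. The sum of the pair depends little on how reads are divided within it, since the transcripts are of similar length (2937 and 2768 such words). It ran from 19.8 to 25.6 over the 9 libraries and was 88.8, 90.2 and 19.2 in enriched ethanol replicates 1, 2 and 3. The sum in replicate 3 was below that of each of the other 11 libraries.

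The constitutive Hsp70 behaved alike in rank but not in size. Hspa8 (chromosome 9, 40800984 to 40810087) encodes HSC70, which among other tasks strips clathrin from vesicles at synapses. It was at 1892, 1877 and 1756 in standard saline, 1806, 1972 and 1905 in standard ethanol, and 2080.4, 2057 and 1951 in enriched saline mice. Enriched ethanol replicates 1, 2 and 3 were at 2314, 2364 and 1977. The first 2 were 1.22 and 1.24 times the median of the 9 libraries, above all of them, and replicate 3 was inside their range. In absolute terms Hspa8 and Hsp90aa1 made up most of the excess of the set. The summed level of the 10 genes exceeded the median of the 9 libraries by 886 and 1002 in replicates 1 and 2, and 73.1% and 77.2% of that came from this gene pair.

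The Hsp70 helpers lay between. Hsph1 (chromosome 5, 149614287 to 149636376) encodes HSP105 of the Hsp110 class, a nucleotide exchange factor for Hsp70. It was at 157, 154 and 163 in standard saline, 169, 175 and 175 in standard ethanol, and 178, 169.6 and 143 in enriched saline mice. Its enriched ethanol values were 239, 224 and 180.4, and all 3 lay above the other 9 libraries, although replicate 3 exceeded the highest of them, enriched saline replicate 1, only narrowly. Dnajb1 (chromosome 8, 83608193 to 83612653) encodes HSP40, the J-domain partner of the inducible Hsp70. It was at 32.9, 24.9 and 28.2 in standard saline, 25.2, 30.7 and 31.9 in standard ethanol, and 23.9, 24.8 and 27.4 in enriched saline mice. In enriched ethanol mice it was at 47.3, 52.8 and 25.6, which put replicates 1 and 2 at 1.73 and 1.93 times the median of the 9 and replicate 3 at 0.934 times. Bag3 (chromosome 7, 128523616 to 128546981) encodes an exchange factor that links Hsp70 and small heat shock proteins to selective autophagy. Its levels were low throughout, at 3.77, 3.65 and 4.25 in standard saline, 4.15, 3.68 and 3.98 in standard ethanol, and 3.09, 3.49 and 3.14 in enriched saline mice. The enriched ethanol values of 6.14, 5.25 and 3.84 put replicates 1 and 2 above the other 9 libraries and replicate 3 within them.

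HSP90 and its partner showed smaller ratios. Hsp90aa1 (chromosome 12, 110690605 to 110702728) encodes the inducible form of cytosolic HSP90. It was at 950.5, 981 and 864 in standard saline, 899.7, 1067 and 1073 in standard ethanol, and 1129, 1163 and 970.5 in enriched saline mice. The enriched ethanol values were 1219.95, 1296 and 1029.8, so that replicate 1 exceeded enriched saline replicate 2, the nearest of the 9, by little. Fkbp4 (chromosome 6, 128429735 to 128438677) encodes FKBP52, an HSP90 cochaperone known for its part in steroid receptor complexes. It was at 105, 101 and 109.95 in standard saline, 104, 97.7 and 105 in standard ethanol, and 107, 118 and 106 in enriched saline mice. Enriched ethanol replicates 1, 2 and 3 were at 139.8, 134 and 118, with replicate 3 just above enriched saline replicate 2.

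The small heat shock protein gene Hspb1 (chromosome 5, 135887919 to 135889563) encodes HSP27, also named HSP25 in the mouse, which holds unfolded proteins without using ATP. It was at 9.28, 5.66 and 7.41 in standard saline, 7.32, 4.65 and 7.08 in standard ethanol, and 4.54, 11.5 and 8.42 in enriched saline mice. In the enriched ethanol libraries it was at 25.8, 24.6 and 6.67. Replicates 1 and 2 were 3.52 and 3.36 times the median of the 9 libraries, although the gene varied most among those 9, with a coefficient of variation of 30.5%, against 5.29% for Fkbp4. Hspd1 (chromosome 1, 55077835 to 55088243), the mitochondrial member, had the smallest ratios, 1.17 and 1.20. It was at 164, 168 and 149 in standard saline, 160.2, 172 and 176 in standard ethanol, 182, 183 and 154 in enriched saline, and 196, 201 and 181 in enriched ethanol mice. Enriched saline replicates 1 and 2 of Hspd1 lay above enriched ethanol replicate 3.

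Across the 10 genes, the ratio to the median of the 9 libraries ran from 1.17 to 3.80 in enriched ethanol replicate 1 (median 1.54), from 1.20 to 3.90 in replicate 2 (median 1.38) and from 0.741 to 1.13 in replicate 3 (median 1.04). Replicate 1 lay above the whole range of the 9 for 10 of 10 genes, where 8.82% of all genes tested did. For replicate 2 it was again 10 of 10, against 9.06% of all genes. Replicate 3 was above the range for 2 genes, Hsph1 and Fkbp4, inside it for 7 and below it for Hspa1a, against 7.09% of all genes above. In replicate 1 the ratios fell into 3 steps, with Hspa1a, Hspa1b and Hspb1 at over 3-fold, Dnajb1 and Bag3 between, and the other 5 at 1.17 to 1.41. In replicate 2 the middle step was less clear, since Bag3 was at 5.25 there and at 6.14 in replicate 1. The 3 genes with the highest ratios had mean levels at rank 7634 or further down, and the pair with the highest levels had ratios of at most 1.32. Bag3, at rank 12117, had the lowest mean of the 10 without one of the highest ratios. Between the pair of high libraries the order varied, replicate 1 being the higher for 4 genes and replicate 2 for 6. The plot of ratios shows these steps.

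**Figure D2:**
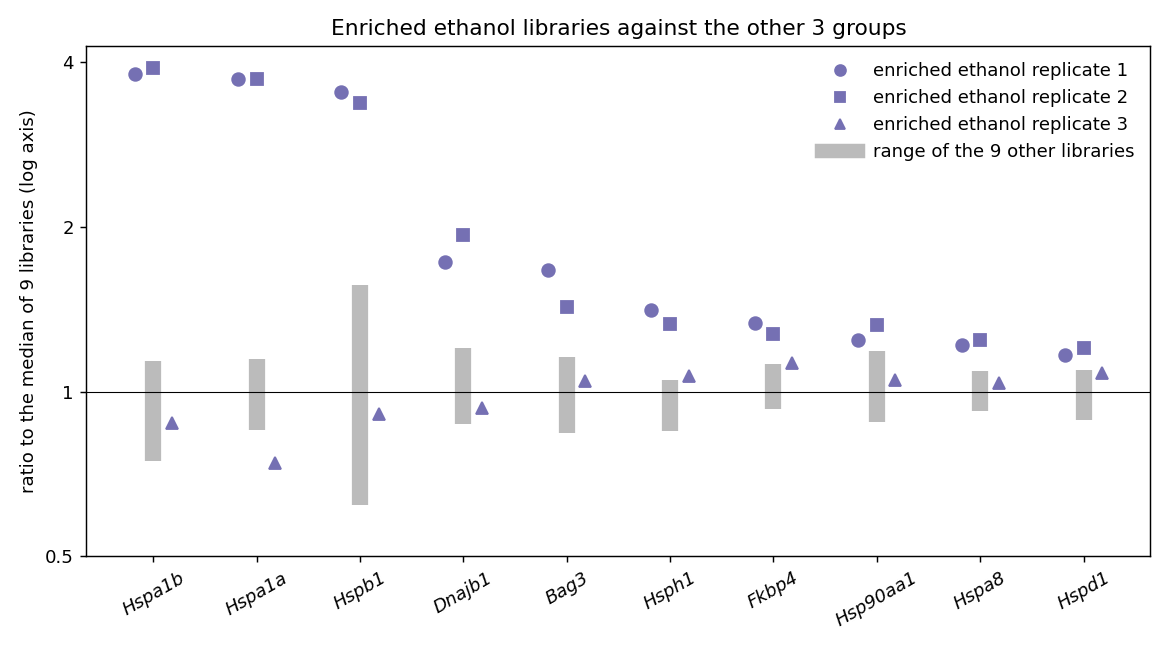
Ratio of each enriched ethanol library to the median of the 9 libraries of the other groups (vertical axis, logarithmic) for the 10 genes, in order of the ratio in replicate 1, with grey bars for the range of those 9 libraries. Replicates 1 and 2 lie above the grey bar for all 10 genes, and replicate 3 lies below it for Hspa1a, above it for Hsph1 and Fkbp4 and inside it for the other 7.

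Several of these genes have processed copies elsewhere in the genome whose reads could be exchanged with theirs. Of the 31-base words in their GENCODE M21 transcripts, other genes shared 55.4% for Hspb1, 53.1% for Hspd1, 51.5% for Hsp90aa1 and 44.8% for Hspa8, against 3.01% for Fkbp4, 0.444% for Dnajb1 and 0% for Hsph1 and Bag3. The closest copies were listed at low levels in every library. Hsp25-ps1, the copy closest to Hspb1, was at 0 to 2.21 in the 9 libraries and at 0 in all 3 enriched ethanol libraries. Gm12346, the closest to Hsp90aa1, ranged from 0.454 to 1.44 in those 9, while enriched ethanol replicates 1, 2 and 3 had 0.994, 1.10 and 0.734. Gm15459, the closest to Hspa8, was at 1.72, 2.89 and 2.27 in these 3, against 1.10 to 2.25 in the 9, and Hspd1-ps3, the closest to Hspd1, at 0.303, 0.201 and 0.216 against 0 to 0.230. Gm15459 in replicates 2 and 3 and Hspd1-ps3 in replicate 1 thus lay above the 9, at levels far below those of Hspa8 and Hspd1.

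Ethanol in standard cages and enrichment in saline mice are the comparisons that do not use enriched ethanol as a group, and in them the 10 genes were tested. Both share the standard saline libraries. The spread behind each SE was shared by all 4 groups, so a gap between enriched ethanol replicates 1 and 2 and replicate 3 widens it. The choice of the genes thus worked against calls among them, which limits the counts of 0 below. Fitting only the compared groups changed no call at the adjusted threshold. Hsph1 was the only one of the 10 whose standard ethanol libraries all lay above the standard saline ones, against 6.11% of all genes, and Hspa1a the only one whose libraries all lay below them, against 5.99%. For Hsph1 the means were 173 ± 3.14 with ethanol and 158 ± 4.63 with saline (SD, n = 3 each), a log2 difference of 0.13 (SE 0.10, limma adjusted p = 0.835). Hspa1a averaged 9.68 ± 0.907 against 11.4 ± 0.748, a log2 difference of -0.23 (SE 0.45, limma adjusted p = 0.956). That SE comes from a spread shared by all 4 groups, enriched ethanol included, and with only the 2 compared groups in the fit it was 0.12 (limma adjusted p = 0.807). Neither difference passed. The other 8 genes had log2 differences from -0.21 (Hspb1, SE 0.45) to 0.12 (Hsp90aa1, SE 0.10), with limma adjusted p from 0.864 to 0.999. Of the 10 genes, 0 passed an adjusted p of 0.05 and 0 had an unadjusted p under that value in limma, where 0.0134% of all genes (2) passed and 1105 of 14947 had such an unadjusted p. The median log2 difference of the 10 was 0.02, beside 0.00 for all genes.

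Enrichment in saline mice gave slightly larger differences for the abundant members. Hspa8 averaged 2030 ± 68.8 in enriched saline and 1842 ± 74.2 in standard saline mice (SD, n = 3 each), and its groups did not overlap. Its log2 difference was 0.14 (SE 0.07, limma adjusted p = 0.540). Hsp90aa1 averaged 1088 ± 103 against 932 ± 60.8, with overlap, a log2 difference of 0.22 (SE 0.10, limma adjusted p = 0.506). Hspa8 was the only one of the 10 with all enriched saline libraries above the standard saline ones, a position that 7.40% of all genes had. Bag3, at 3.24 ± 0.219 against 3.89 ± 0.313, was the only one with all of them below, as were 6.57% of all genes, with a log2 difference of -0.23 (SE 0.17, limma adjusted p = 0.676). The remaining 7 genes ranged from -0.19 (Hspa1b, SE 0.43) to 0.11 (Hspd1, SE 0.08), with errors from the same spread shared by all 4 groups. Without enriched saline replicate 2, the library rich in choroid plexus markers, the difference was 0.13 (SE 0.09) for Hspa8, 0.17 (SE 0.12) for Hsp90aa1 and -0.28 (SE 0.19) for Bag3, and that of Hspb1 turned from 0.06 to -0.22 (SE 0.49). In limma 0 of the 10 passed and 0 had an unadjusted p under 0.05, where 0.0268% of all genes (4) passed and 1498 of 14947 had such an unadjusted p. The median log2 difference of the 10 was 0.05, beside 0.00 for all genes.

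The comparisons that use the enriched ethanol group are given for the 10 genes without a test, since that group chose them. They share that group, so their values for a gene are not independent. For ethanol in enriched cages the log2 differences were 1.37 (SE 0.43) for Hspa1b, 1.14 (SE 0.45) for Hspa1a and 1.04 (SE 0.45) for Hspb1. For enrichment in ethanol mice the same genes gave 1.21, 1.24 and 1.32 with the same errors. These differences depended on the library that did not share the height. For Hspa1a, ethanol in enriched cages gave 1.90 (SE 0.12) without enriched ethanol replicate 3, 0.77 (SE 0.46) without replicate 1 and 0.77 (SE 0.46) without replicate 2. For Hspa1b the values were 2.06 (SE 0.15), 1.03 (SE 0.44) and 1.01 (SE 0.44), and for Dnajb1 they were 0.97 (SE 0.13), 0.53 (SE 0.24) and 0.45 (SE 0.22). At the other end, Hspa8 differed by 0.12 (SE 0.07) for ethanol in enriched cages and by 0.22 (SE 0.07) for enrichment in ethanol mice. Hsp90aa1 differed by 0.12 and 0.22 (SE 0.10 each). The median over the 10 genes was 0.47 for ethanol in enriched cages and 0.33 for enrichment in ethanol mice, beside -0.01 for all genes in both.

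Enriched ethanol replicate 3 did not share the height of the rest of its group. It lay inside the range of the 9 libraries of the other groups for 7 of the 10 genes. Most of the genes therefore did not separate the groups. All enriched ethanol libraries lay above all enriched saline ones for 3 of the 10, Hsph1, Fkbp4 and Bag3, where 7.78% of all genes did. They lay above all standard ethanol ones for 4, Hspa8, Hspd1, Hsph1 and Fkbp4, where 6.07% of all genes did. The genes with the highest ratios, Hspa1a, Hspa1b and Hspb1, overlapped in both. The difference of differences, ethanol by enrichment, was 1.40 (SE 0.60) for Hspa1b, 1.38 (SE 0.64) for Hspa1a and 1.26 for Hspb1, and it was smaller for Hspa8 (0.08), Hspd1 (0.07) and Hsp90aa1 (-0.0008). Since the genes were selected on those libraries, nothing is read from these counts.

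The other cytosolic and mitochondrial chaperones show how far the pattern extended in the network around the 10 genes. The list held 69 genes, of which 66 passed the filter, the others being Hspb2, Hspb7 and Cryaa. In limma 0 of the 66 passed in each of the 5 comparisons, where the share of all genes passing was 0.0134% for ethanol in standard cages, 0.0268% for enrichment in saline mice, 0% for ethanol in enriched cages, 0.00669% for enrichment in ethanol mice and 0.0134% for the interaction. The lowest limma adjusted p among the 66 was 0.379, for Hspb6, a small heat shock protein, in enrichment of saline mice (log2 difference 1.02, SE 0.33). At an unadjusted p under 0.05, 10 of the 66 were higher and 0 lower for enrichment in ethanol mice, and 5 were higher and 2 lower for ethanol in enriched cages. Over all genes, 833 and 1160 had such a p in these comparisons. For the other 3, the counts of higher and lower genes among the 66 were 2 and 1 (ethanol in standard cages), 4 and 1 (enrichment in saline mice) and 2 and 2 (interaction), where 1105, 1498 and 1107 of the 14947 genes had such a p. The median log2 difference of the 66 was 0.06 for enrichment in ethanol mice and 0.03 for ethanol in enriched cages, beside -0.01 for all genes in both.

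The largest single differences among the 66 came from J-domain and small heat shock protein genes in most comparisons. Hspb3 and Hspb6 were near the filter, with 12-library means of 1.58 and 2.52. They varied widely, with coefficients of variation of 53.4% and 50.1% over the 9 libraries outside enriched ethanol. Dnaja1 and Dnaja4, for J-domain proteins, led enrichment in ethanol mice with log2 differences of 0.39 (SE 0.12, limma adjusted p = 0.861) and 0.37 (SE 0.10, adjusted p = 0.836), and Hspa12b (-0.34, SE 0.32) and Hspb6 (-0.24, SE 0.33) were lowest. For ethanol in enriched cages, Cryab, the lens and glial small heat shock protein alpha-B crystallin, was at 0.42 (SE 0.18) and Dnajb5 at 0.29 (SE 0.12), with Hspb3 (-0.67, SE 0.45) and Hsf4 (-0.43, SE 0.16) at the other end. Ethanol in standard cages gave 0.84 (SE 0.33) for Hspb6, 0.23 (SE 0.18) for Bag2, -0.38 (SE 0.16) for Hsf4 and -0.21 (SE 0.18) for Fkbp5, an HSP90 cochaperone induced by glucocorticoids. Enrichment in saline mice gave 0.73 (SE 0.45) for Hspb3, -0.23 (SE 0.18) for Fkbp5 and -0.18 (SE 0.12) for Dnajb5 beside the value of Hspb6 above. The interaction was largest for Dnaja4 (0.41, SE 0.14) and Cryab (0.40, SE 0.25) and lowest for Hspb6 (-1.25, SE 0.47) and Hspb3 (-0.63, SE 0.63). None of these passed limma's adjusted threshold.

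Of the 66, 15 (22.7%) had enriched ethanol replicates 1 and 2 as the 2 highest libraries, beside 2.88% of all genes tested. They are named here after their values were seen. The HSP90 group gave 8 of its 16, namely Hsp90ab1, Stip1, Ahsa1, Ahsa2, Ptges3, Ppid, Cacybp and St13. Hsp90ab1, the constitutive cytosolic HSP90, was at 1335 and 1299.8 in these libraries and at 1163 in replicate 3, against 1002 to 1157 in the 9 others. The J-domain group gave 3 of 11, Dnaja1, Dnaja4 and Dnajb4. Dnaja1, for a farnesylated J-domain partner of Hsp70, was at 359 and 392, and at 303 in replicate 3, against 222 to 309 in the 9 others. The Hsp110-class genes Hspa4 and Hspa4l, the TRiC subunit gene Cct4 and the factor gene Hsf2 completed the 15. The BAG group gave 0 of 7, and so did the mitochondrial group (0 of 8) and the other small heat shock proteins (0 of 4).

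By role, the median ratio of the HSP90 group to the 9 libraries was 1.14 and 1.16 in replicates 1 and 2 and 0.986 in replicate 3. In replicates 1 and 2 it was 0.994 and 1.04 for the 8 mitochondrial chaperones, 0.999 and 1.08 for the 8 TRiC subunits and 1.02 and 1.10 for the 11 J-domain genes. For the 4 other small heat shock proteins, the low Hspb3 and Hspb6 among them, it was 1.39 and 0.974. Cryab, the most abundant of them, was at 173, 166 and 151 in the enriched ethanol libraries, inside the range of 97.1 to 178 of the 9 others. Other abundant chaperones stayed inside the range of the 9 libraries in replicates 1, 2 and 3, such as Fkbp8 (279, 299 and 293 against 277 to 312), Dnajc6 (277, 294 and 276 against 253 to 301) and the mitochondrial Hsp70 gene Hspa9 (180.3, 187 and 176 against 165 to 189.7). Hspe1, the cochaperonin partner of Hspd1, was at 167, 185 and 161 against 127 to 172. Hsf1, the transcription factor gene, was at 18.3, 15.6 and 17.8 against 15.4 to 18.7, inside the range in all 3 libraries, as RNA and not as active protein. The chaperones of the endoplasmic reticulum, of which 18 were tested, had median ratios of 1.13, 1.18 and 1.01. Among them, 3 (Manf, Xbp1 and Herpud1, named after their values were seen) had replicates 1 and 2 on top. Hspa5, which encodes the BiP chaperone, was at 301 and 329 in replicates 1 and 2 and at 224 in replicate 3, against 193 to 313 in the 9 others. That 313 was in enriched saline replicate 2, the library rich in choroid plexus markers, and the next highest of the 9 was 237. In the same library Calr, Pdia3, Pdia4, Pdia6 and Dnajc3 exceeded both replicates 1 and 2, and Serpinh1 exceeded replicate 2. The count of 3 endoplasmic reticulum genes thus depends on that library. The plot of chaperone roles sets these groups beside the 10 genes.

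**Figure D3:**
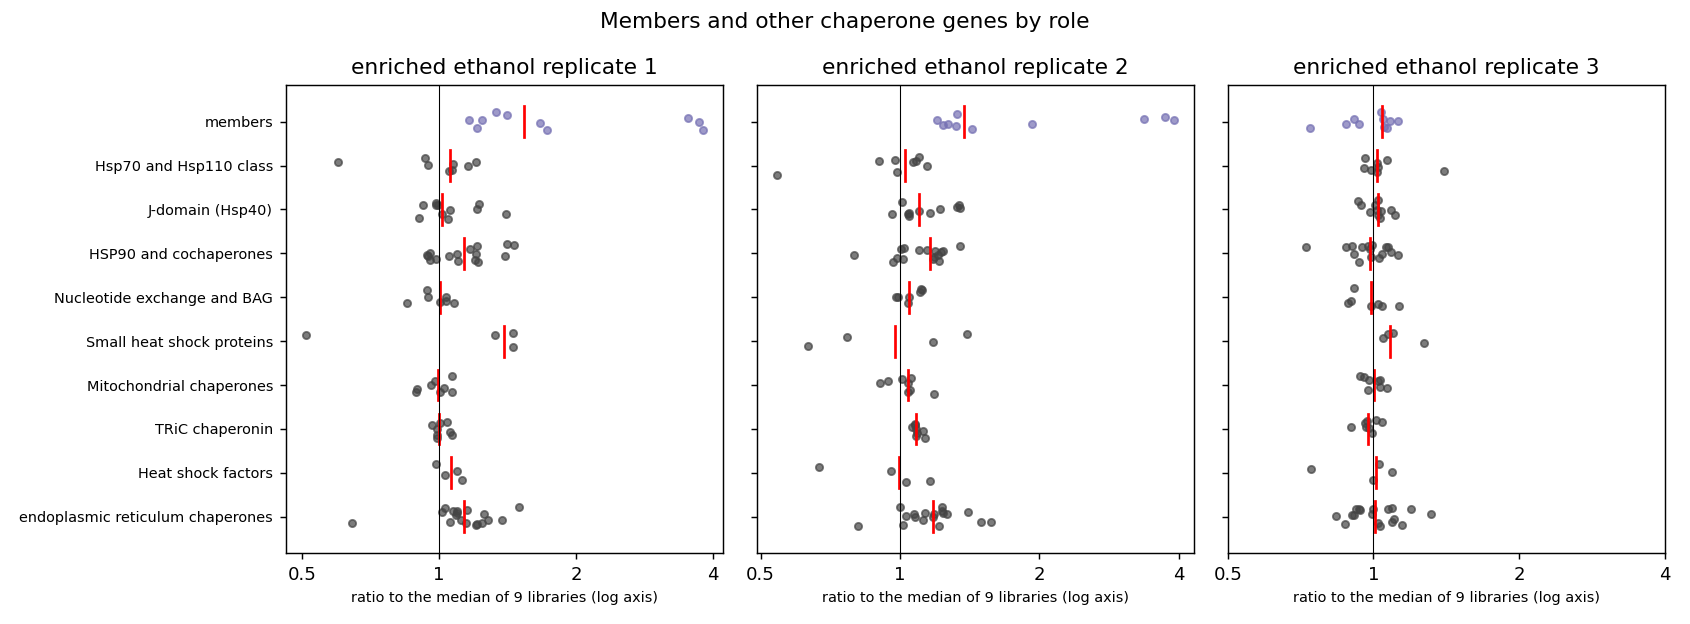
Ratio of the 3 enriched ethanol libraries (1 panel each) to the median of the 9 libraries of the other groups (horizontal axes, logarithmic), for the 10 genes (top line) and for the other tested chaperone genes by role, with 1 point per gene and red bars for the median of each line. In replicates 1 and 2 only points of the top line lie beyond 2-fold higher, and in replicate 3 the medians of all lines lie close to 1.

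The 10 genes were correlated as a set over the 12 libraries, and over the 9 that leave out enriched ethanol only some pairs were. The correlation of each gene with the mean of the other 9 genes, on log2 values, ran from 0.68 (Hsp90aa1 and Hspd1) to 0.96 (Hspa1a and Hspa1b) over 12 libraries. Over the 9 libraries it ran from -0.10 (Hspa8) to 0.56 (Fkbp4), and it was 0.30 for Hspa1a and 0.08 for Hspa1b. Of the 45 gene pairs, the median correlation was 0.80 over 12 libraries and -0.03 over 9, with 22 pairs positive in the latter. Over the 9, the highest were among the most abundant chaperones and Hspd1, at 0.93 for Hsp90aa1 with Hspd1, 0.92 for Hsp90aa1 with Hspa8 and 0.79 for Hspa8 with Hspd1. The lowest was -0.83, for Hspa8 with Bag3. These values describe libraries that share groups, and the correlation as a set rests on 2 of them. The mean of the 10 genes, centred on each gene's 12-library mean, was 0.732 and 0.725 in enriched ethanol replicates 1 and 2 (log2 scale), -0.16 in replicate 3 and -0.23 to -0.01 in the other 9.

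Genes outside the 10 with the most similar pattern were sought among 11635 genes with a mean of at least 5, by Pearson correlation with that mean over the 12 libraries. Since 2 libraries set the mean, this lists genes that were high in those same libraries. Only named protein-coding genes are listed, which leaves out other gene types and unnamed predicted genes. Of the 11635, 5 had r over 0.9 and 4 had r under -0.9, and not all of these are listed. The highest were Vcam1 (r = 0.96), which encodes an adhesion molecule of vessel walls, and Sgk1 (0.95), a kinase gene known to respond to glucocorticoids. P4ha1 (0.92), for a subunit of collagen prolyl hydroxylase, the olfactory receptor gene Olfr1033 (0.92), the EGF receptor inhibitor gene Errfi1 (0.90) and the hydroxylase gene Jmjd6 (0.89) came next. The cullin gene Cul2 (0.89), the phosphatase gene Ptpn9 (0.88), the F-box gene Fbxl14 (0.87) and Ccdc117 (0.87) completed the 10. Over the 9 other libraries the same correlation was 0.76 for Vcam1, 0.56 for Sgk1 and -0.10 for Errfi1.

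Vcam1 was at 42.3 and 39.9 in enriched ethanol replicates 1 and 2, at 20.8 in replicate 3 and at 17.6 to 25.7 in the 9 others. The summed endothelial markers were at 151 and 123 there, at 159 in replicate 3 and at 126 to 181 in the 9 others, so that replicate 2 had the lowest sum. Sgk1 was at 144 and 150.4, at 51.4 in replicate 3, and at 51.3 to 76.7 in the 9 others. Olfr1033 was at 170.1 and 135, against 57.5 in replicate 3 and 25.8 to 55.5 in the 9 others. Among named protein-coding genes, the lowest correlations were those of Dgat1 (-0.98), for an enzyme of triglyceride synthesis, and Cdc42bpa (-0.96), for a kinase of the actin cytoskeleton. Dcaf15 (-0.92), Mapk1ip1 (-0.89) and Fbxw9 (-0.89) followed. Cdc42bpa was at 112 and 103 in replicates 1 and 2 and at 163 in replicate 3, against 157 to 186 in the 9 others. Dgat1 was at 11.96 and 11.8, against 15.2 in replicate 3 and 15.2 to 16.2 in the 9 others. For both, replicates 1 and 2 lay below every other library.

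Rbm3, Cirbp, Arc and Fos were fixed beside these as readouts of temperature and of neuronal activity. Rbm3, a cold-inducible RNA-binding protein gene, was at 144, 163 and 129.6 in enriched ethanol replicates 1, 2 and 3, below the 169.5 to 258 of the 9 others in all 3, and its correlation with the mean of the 10 was -0.42. Cirbp, also induced by cold, was at 72.1, 74.3 and 71.1, inside the range of 67.1 to 100.3 (r = -0.39). By group, Rbm3 was at 240, 258 and 237 in standard saline, 180, 179 and 202 in standard ethanol, and 169.5, 172 and 199.6 in enriched saline mice. It was thus also lower in standard ethanol and in enriched saline than in standard saline mice. Arc, an immediate-early gene of active neurons, was at 185 and 233 in replicates 1 and 2, at 102 in replicate 3 and at 54.4 to 160.3 in the 9 others (r = 0.62). Replicates 1 and 2 were its 2 highest libraries, and among 11 immediate-early genes Arc was the only 1 with that pattern. The correlation was 0.27 for Fos, 0.65 for Hsf2 and -0.04 for Hsf1. The sum of the 11 immediate-early genes was 493, 585 and 349 in the 3 enriched ethanol libraries, against 220 to 514. Arc, the most abundant of the 11, is part of that sum. The part of temperature or of neuronal activity in the levels of the 10 genes was not tested.

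**Figure D4:**
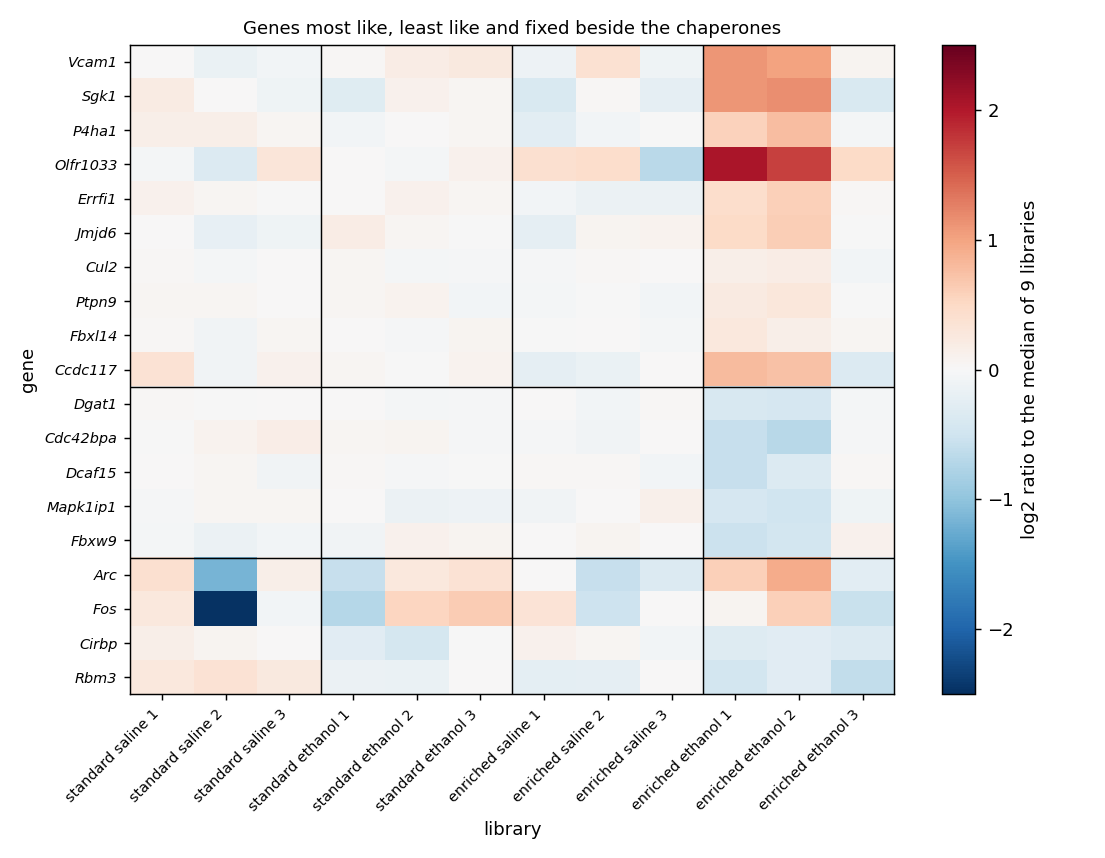
Log2 ratio of each library to the median of the 9 libraries outside enriched ethanol (colour), for the 10 named protein-coding genes most like the chaperone mean (top block), the 5 least like it (middle block) and 4 genes fixed beside them (bottom block), with libraries in columns and lines between groups. The columns of enriched ethanol replicates 1 and 2 are red in the top block and blue in the middle one, whereas the Rbm3 row is blue in all 3 enriched ethanol columns.

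Library composition was checked with lists of 6 markers per cell type (5 for blood), none of which was listed at 0 in any library. Neurod6, of pyramidal cells, lay between 104 and 152 and C1ql2, of granule cells, between 39.8 and 81.8 over the 12 libraries, so markers of the labelled tissue were present. Granule cell markers summed to 192, 174 and 191 and pyramidal cell markers to 347, 406 and 390.3 in enriched ethanol replicates 1, 2 and 3, inside the ranges of the 9 others (141 to 294 and 299 to 416). The astrocyte, microglia, mural and meningeal sums of all 3 also lay inside those ranges, and the choroid plexus sums, at 42.2, 49.7 and 48.1, lay near the lowest of the 9 others (34.7). The endothelial sum of replicate 2 was below all 9, as given beside Vcam1. Oligodendrocyte markers were at 3528 and 3767 in replicates 1 and 2 and at 5236 in replicate 3, against 2935 to 5155. Haemoglobin and other red cell genes summed to 2356, 5032 and 1040 against 1359 to 9039, so that replicate 3 was the lowest. The part of tissue composition in the levels of the 10 genes was not tested, and in whole tissue fewer cells of a type cannot be told apart from less RNA per cell. Rank correlations between libraries over the tested genes ran from 0.976 to 0.989, and the sequencing depth behind each value is unknown.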

How the data were processed

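Total RNA of 12 hippocampi, in 4 groups of 3 taken from the sample titles, had been made into stranded libraries after rRNA depletion, per the labels' protocols. The submitters' processing notes name CASAVA, kallisto, sleuth and mm10, without versions or roles, and for the annotation release the sources used here give no name. The authors deposited 1 value per gene and library, named TPM. Its columns sum to 973187 to 1024536, so the deposited value was treated as a signal proportional to TPM within a library, where the design had assumed TPM, and the test is the same for both. Such values keep no read counts, so depth and counting error are unknown and a 0 can be a failed estimate. A factor per library remains, and the median ratio to the geometric mean library was 0.995 to 1.01. No columns were identical.

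Gene symbols and positions came from GENCODE M21 (GRCm38; 35827 of 36119 identifiers had a symbol), and promoter windows from RefSeq (GRCm38.p6). limma 3.58.1 in R 4.3.3 fitted 4 group means to log2(value + 0.5) of 14947 genes (mean of 1 or more; 8 residual degrees of freedom, 3.82 from the prior, mean-variance trend). Fold changes on this scale understate those of low genes. The 5 comparisons had two-sided tests, and p-values were adjusted by Benjamini and Hochberg's method across the whole table (threshold 0.05). The code was tested on simulated data. Ratios use values without the pseudocount.

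The 10 genes, the chaperone and marker lists and the tests were chosen with earlier results of these data known. The text names all 10 genes and, by a fixed rule, other chaperones that passed, had the largest differences or the highest means, the 10 most and 5 least correlated named protein-coding genes, and Hsf1, Hsf2, Rbm3, Cirbp, Fos and Arc. Marker lists are given mainly by their sums. Genes outside the rule were named after their values were seen, among them Hspa5 and the pseudogenes. Alternatives were other pseudocounts, filters, scalings and groups in the fit, no trend, a replicate block and leaving out each library. After the data were seen, leaving out each library and a lower filter were added for the correlations.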

Additional observations from a re-analysis of the deposited data

How the results depend on the processing

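With every library in, no tested log2 difference of the 10 genes changed direction or call under another setting, and of 435 values in all only the interaction of Hsp90aa1, which is near 0, changed sign, under 1 setting. Leaving out 1 library at a time, that interaction ran from -0.0842 to 0.0952 and that of Hspd1 from -0.00868 to 0.126. Another 12 of 360 values reversed, all of differences that did not pass, and 9 moved by more than the spread between replicates, all without enriched ethanol replicate 3. The reversed ones ranged from -0.169 to 0.0429 for Hspa1b, -0.0631 to 0.135 for Dnajb1 and -0.0230 to 0.0733 for Bag3 (ethanol in standard cages), and from -0.0170 to 0.139 for Hsph1 and -0.220 to 0.404 for Hspb1 (enrichment in saline mice). Other chaperones passing limma stayed at 0 of 66 under all alternatives run. Counts over all genes are given in the order ethanol in standard cages, enrichment in saline mice, ethanol in enriched cages, enrichment in ethanol mice and interaction, where the reported counts are 2, 4, 0, 1 and 2. Without a filter they were 7, 7, 1, 2 and 4. A pseudocount of 0.1 gave 0 for ethanol in standard cages, enrichment in ethanol mice and the interaction and 2 for ethanol in enriched cages, and a pseudocount of 1 gave 1 for enrichment in saline mice. Testing genes with a mean of 5 or more gave 1 for enrichment in saline mice and 0 for the others that moved. Fitting only the compared groups gave 4, 8, 1 and 4 for the comparisons of 2 groups. Leaving out 1 library gave 2 to 7, 1 to 20, 0 to 15, 1 to 21 and 1 to 12. The highest counts came without standard saline replicate 2 (7 and 20) and without enriched ethanol replicate 3 (15, 21 and 12). The cause was not tested. Promoters with 2 units instead of 3 were found for 7 instead of 2 genes. Of the correlations, 126 of 126 values moved by less than 0.1 with all libraries in, and 11 of 252 moved by more when 1 was left out. Among these, that of Hsf1 ran from -0.41 without enriched ethanol replicate 1 to 0.26 without replicate 2.

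The replicate numbers did not pair the samples. Deviations of same-numbered libraries correlated at -0.15 to 0.06, and 2 of 12 libraries correlated best with their own number. With the replicate block the counts were 2, 3, 0, 1 and 2, and it changed no call of the 10 genes.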
